A study of Mus musculus with 43 samples.

Results

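Heat shock and cold-inducible genes were followed as a set of 10 genes in the brains of 2 mouse models of Alzheimer's disease given the NRF2-inducing compound CDDO-2P-Im. The set holds 8 heat shock genes (Hspa1a, Hspa1b, Dnajb1, Hsph1, Hspb1, Hspa8, Hsp90aa1 and Hsp90ab1) and 2 cold-inducible RNA-binding protein genes (Rbm3 and Cirbp). The members were taken by gene symbol through the Ensembl gene identifiers of the deposited tables, and all 10 were found among the 55804 gene rows of each table.

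CDDO-2P-Im, a synthetic oleanane triterpenoid, was given by mouth at 30 µmol per kg body weight 3 times per week. The first cohort, sampled at 6 months of age, held 13 brains of AppNLGF mice treated with 2P-Im for 4 weeks, 11 brains of AppNLGF mice given vehicle, and 4 vehicle-treated wild-type brains. AppNLGF mice are labelled AppNL-G-F/NL-G-F and carry the altered App alleles as a knock-in at the mouse gene. The second cohort, sampled at 11 months, held 5 brains of APP/TAU mice treated for 2 weeks, 5 brains of APP/TAU mice given vehicle, and 5 vehicle-treated wild-type brains. APP/TAU mice are labelled APPV717I::TAUP301L, and the labels name neither the promoters of the transgenes nor the strain of the wild-type mice. The vehicle held DMSO and Chremophol EL in PBS, and no dosing schedule is given for the wild-type mice. RNA was sequenced from tissue labelled only as brain. The labels do not say that libraries of a group came from separate animals, so each p-value tests a difference against the spread among libraries only, part of which may be technical.

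Heat shock proteins are chaperones, which bind unfolded or misfolded proteins and help them to fold or pass them on for degradation. Their inducible members are switched on by the transcription factor HSF1, which binds heat shock elements in their promoters when unfolded protein accumulates. Rbm3 and Cirbp behave the other way round in mammalian cells, being induced by mild cooling and lowered by heat, and Rbm3 has been linked to the upkeep of synapses in cooled or diseased mouse brain. Both temperature and unfolded protein therefore act on these genes, and body temperature was not among the data used here.

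In GRCm38 coordinates (GENCODE M21), Hspa1a lies at chr17:34969190-34972156 and Hspa1b at chr17:34956436-34959238, both on the minus strand and next to each other in the major histocompatibility region, with Hsp90ab1 on the same chromosome at chr17:45567775-45573271. Hsph1 lies at chr5:149614287-149636376 and Hspb1 at chr5:135887919-135889563, Dnajb1 at chr8:83608193-83612653, Hspa8 at chr9:40800984-40810087 and Hsp90aa1 at chr12:110690605-110702728. Rbm3 lies on the X chromosome at chrX:8138975-8145880, on the minus strand, and Cirbp at chr10:80165985-80172786. All are protein-coding genes.

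Promoters were searched for the elements by which inducible members of these families are known to be switched. RefSeq promoter sequences (GRCm38.p6) were at hand for 6 of the 10 members, with 9 annotated starts among them, and the 250 bases before each start were searched. For both Dnajb1 starts and the second Cirbp start, the next 30 bases occurred in no GENCODE M21 transcript of the gene. None of the windows of these starts held a match, and all are counted among the 9. By the gene positions above, the windows of the second Dnajb1 start and of both Cirbp starts lie inside the gene. Those of both Hsph1 starts run into it. A pair of heat shock units was written GAANNTTC or TTCNNGAA, each its own reverse complement. Such a pair was found before annotated starts of 4 of these 6 genes, Hspa1a, Hspa1b, Hsph1 and Hspb1. It stood before 5 of the 9 starts, since both Hsph1 starts count the same match. The Hsph1 match lies before these RefSeq starts but inside the gene as placed by GENCODE M21. Of 32851 mouse promoters of the same length, 12.8% held such a pair. A full heat shock element of 3 alternating units, which always contains such a pair, was found before none of the 9 starts, against 0.466% of all promoters. Only exact matches to its pattern were searched, and at that share no match among 9 starts was the likely outcome. The absence therefore does not show that these genes lack a full element. The mild cold responsive element TCCCCGCC, searched also as its reverse complement GGCGGGGA and sharing letters with GC boxes, was found before 3 of the 9 starts, those of Hspa1a, Hspa1b and 1 start of Cirbp, against 4.64% of all promoters. A match describes letters only and shows neither binding nor use.

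The stretches around these matches are shown because they hold the heat shock pairs of Hspa1a, Hspa1b, Hsph1 and Hspb1 and the mild cold responsive element of Hspa1a, Hspa1b and Cirbp. Each is written 5′ to 3′ on the strand of its gene, and capitals mark the matched element, which is a heat shock pair except for GGCGGGGA and TCCCCGCC, the mild cold responsive element.
Hspa1a, chr17:34972243-34972303, minus strand, 147 to 87 bases before the start: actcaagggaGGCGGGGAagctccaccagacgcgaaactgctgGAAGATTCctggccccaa
Hspa1b, chr17:34959325-34959385, minus strand, 147 to 87 bases before the start: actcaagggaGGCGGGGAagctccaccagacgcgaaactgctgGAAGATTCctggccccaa
Hsph1, chr5:149636352-149636379, minus strand: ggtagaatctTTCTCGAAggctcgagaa
Hspb1, chr5:135887792-135887839, plus strand: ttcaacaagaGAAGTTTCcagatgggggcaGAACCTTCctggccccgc
Cirbp, chr10:80167589-80167609, plus strand: ctgTCCCCGCCtcctagtcgc

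Hspa1a and Hspa1b share the shown window letter for letter, and their 250 upstream bases were identical at 247 positions. Their transcripts are also alike: 63.8% of the 31-base words of the Hspa1a transcript occur in Hspa1b, and 67.5% of those of Hspa1b occur in Hspa1a. How the authors' quantification divided reads between them is therefore uncertain, and their summed level is given beside each. The other chaperones share little at that word length, with 0.0923% of Hsp90aa1 words in Hsp90ab1 and none of Hspa1a in Hspa8. Of the genes that overlap a member, Gm20481, on the strand opposite Hspa1a, averaged 0.128 TPM (transcript abundance corrected for length and scaled to the library total) in the AppNLGF cohort, and Rbm3os, antisense to Rbm3, averaged 0.236 TPM. The small nucleolar RNA genes Snord14c, Snord14d and Snord14e lie within Hspa8 on the same strand, and their levels were not analysed here.

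Values are the deposited TPM, which scale each library to the same total and keep no sequencing depth, so the depth behind a value is unknown. A single abundant RNA took 28.3 to 40.0% of the total in AppNLGF-cohort libraries and 15.5 to 34.5% in APP/TAU-cohort libraries. Its share averaged 29.5 ± 1.54% in 2P-Im-treated APP/TAU brains, 22.0 ± 6.59% in vehicle-treated APP/TAU brains and 30.1 ± 3.72% in wild-type brains (SD, n = 5 each). The median deposited log2 fold over all genes in that cohort was -0.19 for 2P-Im against vehicle and 0.18 for vehicle against wild type. Each comparison is given on the deposited scale and again after median-ratio scaling, which brings the median over genes close to 0. Markers of neurons summed to 1353 TPM or more in every library, and those of astrocytes to 201 TPM or more, while 5 markers of the cerebellum summed to 305 to 483 TPM in the APP/TAU cohort. In the AppNLGF cohort 2 of these 5 passed the filter on low values, summing to 18.3 to 32.5 TPM, and Pcp2, Gabra6 and Cbln3 did not, although the tissue of both cohorts is labelled brain. In bulk tissue, fewer cells of a type and less RNA per cell cannot be told apart.

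The constitutive chaperones stood at the top of the members' levels and the inducible HSP70 genes at the bottom. TPM is per length, so levels of genes can be set side by side within a table. The AppNLGF gene values appear to leave out single transcripts listed beside them, which held 36.0% of the summed level of Hsp90aa1 and 1.86% of Hsp90ab1. The gaps between genes given here therefore depend in part on which transcripts were counted. Hspa8, the constitutive HSC70 chaperone that also uncoats clathrin vesicles at synapses, was highest, with 606 ± 79.3 TPM in 2P-Im-treated AppNLGF, 651 ± 39.6 TPM in vehicle-treated AppNLGF and 658 ± 57.3 TPM in wild-type brains (SD, n = 13, 11 and 4). Hsp90ab1, the constitutive HSP90 of the cytosol, followed with means of 420.0, 442 and 456 TPM in the same order, and Hsp90aa1, its more inducible partner, with 249, 267 and 274 TPM. Hsph1 (HSP110, the nucleotide exchange factor of HSP70), Rbm3, Cirbp and Dnajb1 (the HSP40 that hands substrates to HSP70) held the middle of the order. The inducible HSP70 genes stood lowest with Hspb1, the small heat shock protein HSP27: Hspa1a averaged 4.65 ± 0.63, 4.76 ± 0.42 and 4.93 ± 0.90 TPM, and Hspb1 averaged 4.53 ± 1.15, 5.29 ± 1.17 and 4.81 ± 1.22 TPM, in 2P-Im, vehicle and wild-type brains. Hspa1a, Hspa1b and Hspb1 did not differ from each other beyond their spread in this cohort.

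**Figure D1:**
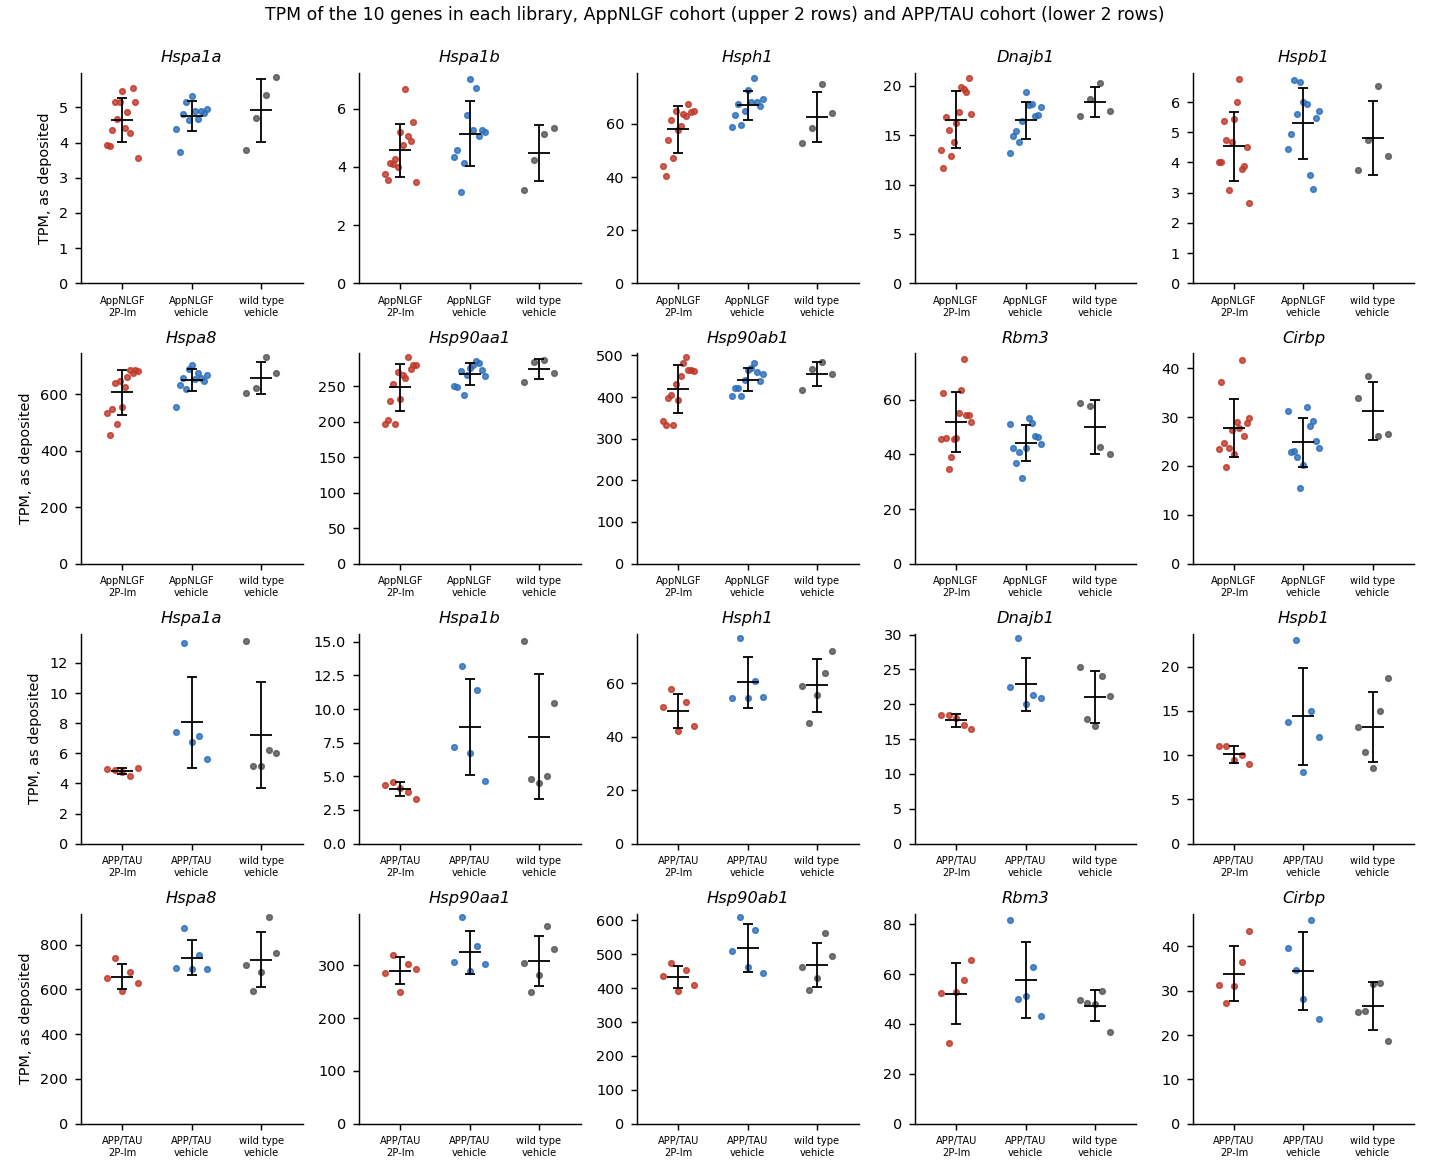
TPM as deposited of each of the 10 genes in every library, each gene on its own linear axis from 0, with the AppNLGF cohort in the upper panels and the APP/TAU cohort in the lower ones; points are libraries, and bars are group means with SD, with 2P-Im left of vehicle and vehicle left of wild type. In the APP/TAU cohort the 2P-Im libraries of Hspa1a form a narrow band at 4.51 to 5.01 TPM, below vehicle libraries at 5.65 to 13.3 TPM, while every gene's groups overlap in the AppNLGF cohort.

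Between 2P-Im and vehicle in AppNLGF mice no member passed the test, and Hsph1 (lower) had the smallest p-value on both scales. After scaling it was followed by Hsp90aa1 (lower) and then by Rbm3 (higher). With limma over all 16776 genes tested and Benjamini-Hochberg adjustment, 0 of 10 members were called at an adjusted p under 0.05 on either scale, where 0.0536% of all genes were called on the deposited scale and 0.286% after median-ratio scaling. At an unadjusted p under 0.05 there was 1 member on the deposited scale, Hsph1, against 6.18% of all genes, and there were 3 after scaling, Hsph1, Hsp90aa1 and Rbm3, against 12.5%. The median log2 fold was -0.098 over the members and -0.038 over all genes as deposited, and -0.055 against -0.0020 after scaling.

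Hsph1 had the smallest p of the set in that comparison. Its level ran from 40.6 over a median of 61.5 to 67.6 TPM in 2P-Im-treated AppNLGF brains, and from 58.9 over 67.6 to 77.2 TPM in vehicle-treated ones, while the 4 wild-type brains ran from 52.7 to 74.9 TPM. The groups overlapped, and the lowest libraries of all were 2P-Im ones. The log2 fold of 2P-Im over vehicle was -0.22 ± 0.08 (SE; limma adjusted p = 0.62), and after median-ratio scaling -0.18 ± 0.04 (adjusted p = 0.073). The scaled value passed the threshold when only the 2 treated and vehicle groups were fitted (adjusted p = 0.039) and with a term for Xist above 10 TPM (adjusted p = 0.036), a level reached in 7 of 13 treated, 5 of 11 vehicle and 0 of 4 wild-type libraries. Within classes, the scaled difference of Hsph1 between 2P-Im and vehicle was -0.22 without and -0.15 with Xist above that level, and -0.24 among libraries numbered 1 to 5 and -0.13 among those numbered 6 and above. With the groups pooled again, it was -0.037 ± 0.04 (adjusted p = 0.78) when the single-transcript values that the table lists beside Hsph1 were added to its gene value, so the size of the fold depended on which transcripts were counted.

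Rbm3 and Cirbp leaned the other way from Hsph1. Rbm3 ran from 34.7 over 52.1 to 74.9 TPM in 2P-Im-treated AppNLGF brains and from 31.5 over 43.7 to 53.2 TPM in vehicle-treated ones, with 40.0 to 59.1 TPM in wild-type brains. The groups overlapped, although the highest values were those of treated brains. Its log2 fold was 0.21 ± 0.10 as deposited (limma adjusted p = 0.78) and 0.25 ± 0.09 after scaling (adjusted p = 0.24), and within the library numbers 1 to 5 and 6 and above the scaled difference was 0.27 and 0.24. Cirbp, which like Rbm3 carries a single RNA recognition motif and is a modulator of circadian transcripts, ran from 19.7 over 27.3 to 41.7 TPM in 2P-Im-treated brains and from 15.5 over 23.6 to 32.1 TPM in vehicle-treated ones. Its fold was 0.16 ± 0.11 as deposited and 0.20 ± 0.11 after scaling, neither past the threshold. Immediate early genes, which mark recent neuronal activity, moved with treatment: of 8 such genes, 4 were called higher with 2P-Im as deposited and 6 after scaling, and their summed level ran from 151 over 284 to 460 TPM in 2P-Im-treated brains and from 117 over 174 to 236 TPM in vehicle-treated ones. Their part in the Hsph1 and Rbm3 values was not tested.

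Neither inducible HSP70 gene passed the test between 2P-Im and vehicle in AppNLGF mice. Hspa1a had a log2 fold of -0.032 (95% interval -0.17 to 0.10) as deposited and 0.0041 (-0.13 to 0.14) after scaling. Hspa1b had a log2 fold of -0.13 (-0.34 to 0.071) as deposited and -0.097 (-0.27 to 0.079) after scaling. The sum of Hspa1a and Hspa1b was 9.22 ± 1.35 TPM in 2P-Im-treated, 9.89 ± 1.29 TPM in vehicle-treated and 9.40 ± 1.86 TPM in wild-type brains. Dnajb1, co-induced with them under heat, had a fold of -0.0083 ± 0.08 as deposited. Across the 28 libraries of this cohort, with group means taken off, the summed immediate early genes had a rho of 0.64 with scaled Dnajb1 and 0.38 with scaled Hspa1b, and their part in these values was not tested. Of the HSP90 genes, scaled Hsp90aa1 varied little within groups, averaging 250.1 ± 10.5 TPM in 2P-Im-treated, 263 ± 11.9 TPM in vehicle-treated and 264 ± 5.97 TPM in wild-type brains. Its scaled fold of -0.073 ± 0.03 (limma adjusted p = 0.23) was small beside those of Hsph1 and Rbm3.

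The AppNLGF genotype was set against wild type in vehicle-treated mice, and again no member was called. With limma, 0 of 10 members passed an adjusted p under 0.05 on either scale, where 0.28% of all genes were called as deposited and 0.691% after scaling. Cirbp alone had an unadjusted p under 0.05 as deposited, against 4.16% of all genes: it averaged 24.8 ± 5.04 TPM in vehicle-treated AppNLGF and 31.2 ± 5.94 TPM in wild-type brains, a log2 fold of -0.33 ± 0.16 (limma adjusted p = 1). Xist was above 10 TPM in 5 of the 11 vehicle and 0 of the 4 wild-type libraries, and with a term for it the deposited fold of Cirbp was -0.17 ± 0.14. Among the vehicle-treated AppNLGF libraries, Cirbp averaged 4.43 with and 4.86 without Xist above that level, in log2(TPM + 1). After scaling, Hsph1 alone did, against 7.05% of all genes, with a fold of 0.13 ± 0.06 (adjusted p = 0.69). The groups overlapped for every member on both scales. The immediate early genes again moved with the groups, 7 of 8 being called lower in vehicle-treated AppNLGF than in wild-type brains on both scales, with sums of 284 to 436 TPM in the wild-type brains, and their part in the Cirbp value was not tested.

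Treated AppNLGF mice were also compared with wild type. The limma count was 0 of 10 members on both scales, where 0.262% of genes were called as deposited and 0.715% after scaling. None of the members had an unadjusted p under 0.05 as deposited, against 7.73% of genes, and Hsp90aa1 alone did after scaling, against 11.6%, with a fold of -0.079 ± 0.04. Rbm3 averaged 51.9 ± 10.9 TPM in 2P-Im-treated AppNLGF brains and 49.9 ± 9.92 TPM in wild-type brains. This comparison and that of vehicle with wild type share the wild-type libraries. With a term for library numbers 1 to 5 against 6 and above, added after seeing the data, Hsph1, Dnajb1, Hspa8, Hsp90aa1 and Hsp90ab1 were called lower with 2P-Im than in wild type as deposited, but so were 30.2% of all genes.

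**Figure D2:**
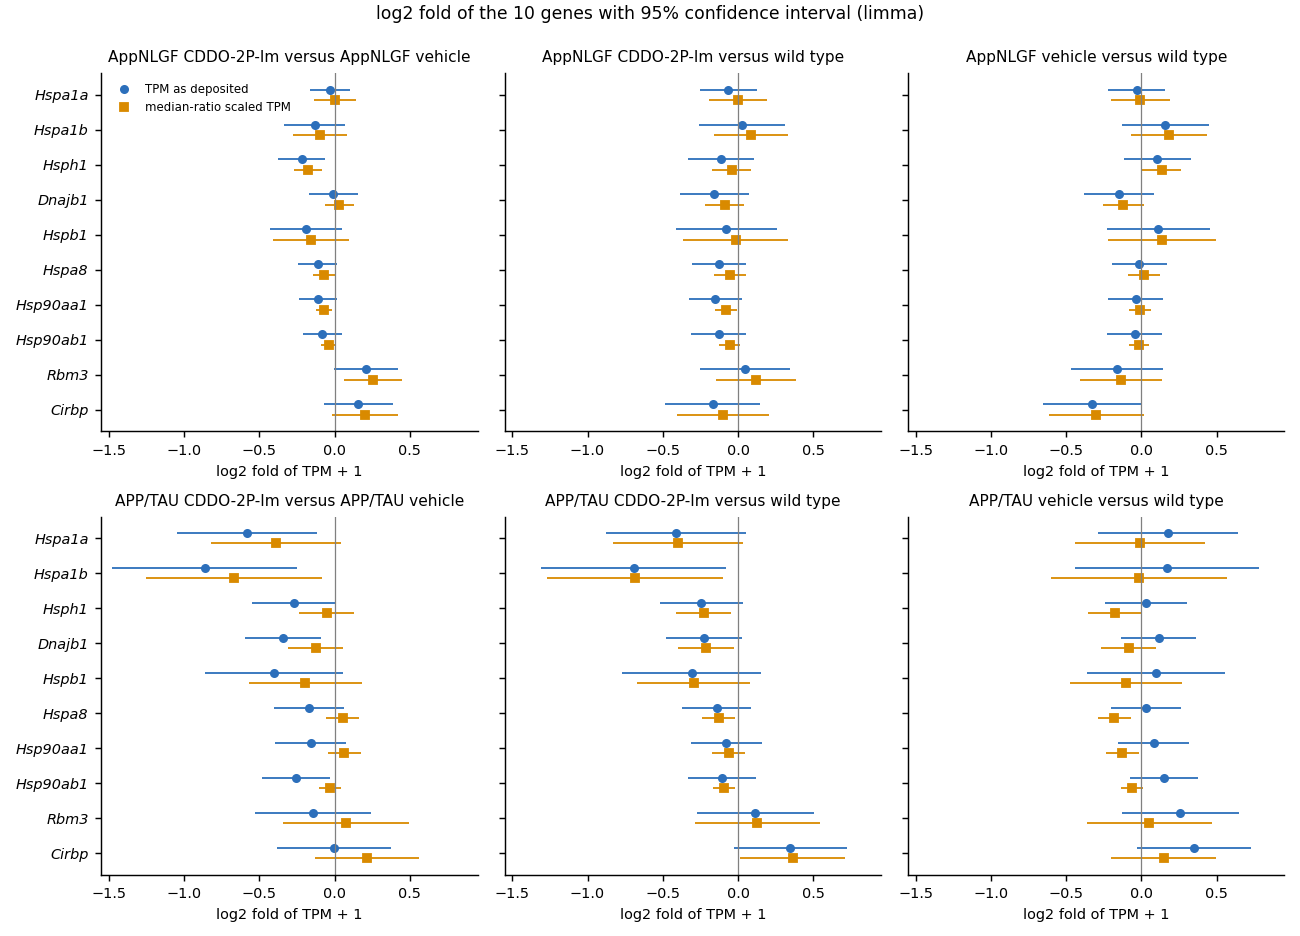
Log2 fold of TPM + 1 of each gene in the 3 comparisons of each cohort, AppNLGF above and APP/TAU below, as deposited (circles) and after median-ratio scaling (squares); bars are 95% confidence intervals from limma and the vertical line marks 0. Hspa1a and Hspa1b lie furthest below 0 for 2P-Im over vehicle in APP/TAU mice (-0.59 and -0.86 as deposited), and Rbm3 lies furthest above 0 for the same comparison in AppNLGF mice (0.21 as deposited).

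In APP/TAU mice the inducible genes Hspa1a, Hspa1b and Dnajb1 had lower deposited levels in every 2P-Im library than in every vehicle library, although none passed the test across all genes. Hspa1a read 4.93, 4.90, 4.77, 4.51 and 5.01 TPM in 2P-Im-treated brains and 7.44, 13.3, 6.74, 7.15 and 5.65 TPM in vehicle-treated brains, against 13.5, 5.15, 5.17, 6.21 and 6.01 TPM in wild-type brains. The treated libraries sat in a narrow band under all others, while 1 vehicle and 1 wild-type library stood far above their groups.

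Hspa1b read 4.39, 4.59, 4.12, 3.82 and 3.29 TPM in 2P-Im-treated brains and 7.18, 13.2, 6.75, 11.4 and 4.66 TPM in vehicle-treated brains, against 15.0, 4.81, 4.48, 5.04 and 10.4 TPM in wild-type brains. Treated and vehicle groups did not overlap, but the treated and wild-type groups did. The sum of both genes depends little on how reads were divided between them, as their transcripts are 2967 and 2803 bases long. This sum was 8.86 ± 0.55 TPM in 2P-Im-treated, 16.7 ± 6.25 TPM in vehicle-treated and 15.2 ± 7.94 TPM in wild-type APP/TAU-cohort brains (SD, n = 5 each). Dnajb1 read 18.4, 18.5, 18.0, 17.1 and 16.4 TPM in 2P-Im-treated brains, 22.5, 29.5, 20.0, 21.4 and 20.9 TPM in vehicle-treated brains, and 25.4, 17.9, 16.9, 24.1 and 21.2 TPM in wild-type brains.

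None of these differences passed the test across all genes. The log2 folds of 2P-Im over vehicle were -0.59 ± 0.22 for Hspa1a, -0.86 ± 0.29 for Hspa1b and -0.34 ± 0.12 for Dnajb1, each with a limma adjusted p of 0.17. Of the 17592 genes tested, 0% were called as deposited and 26.8% had an unadjusted p under 0.05, as 4 of the 10 members did (these genes and Hsp90ab1). Of all genes, 3.62% had every 2P-Im library below every vehicle library, against 3 of the 10 members. The members' median fold was -0.26 and that of all genes -0.19.

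Median-ratio scaling removed the shift over all genes, and the members were then 0 of 10 called with limma, where 0.0114% of genes were called. Hspa1a and Hspa1b still had every treated library below every vehicle library, as 0.898% of all genes did, whereas Dnajb1 no longer did. The scaled folds were -0.39 ± 0.20 for Hspa1a (adjusted p = 0.60), -0.67 ± 0.27 for Hspa1b (adjusted p = 0.53) and -0.13 ± 0.09 for Dnajb1. Only Hspa1b kept an unadjusted p under 0.05, as 8.84% of all genes did.

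Vehicle library 2 of the APP/TAU mice held the highest Hspa1a, Hspa1b, Dnajb1, Hsph1 and Hspb1 of its group and carried part of the difference. Without it the deposited folds were -0.41 for Hspa1a, -0.70 for Hspa1b and -0.25 for Dnajb1, and the scaled folds were -0.26, -0.55 and -0.082. With wild-type library 1 left out as well, the deposited fold of Hspa1a was -0.41 ± 0.09 (limma adjusted p = 0.41). The summed level of the 8 immediate early genes ran from 192 over a median of 237 to 241 TPM in 2P-Im-treated, from 275 over 343 to 401 TPM in vehicle-treated and from 215 over 282 to 328 TPM in wild-type brains. With limma 0 of these 8 genes were called between 2P-Im and vehicle, and 7 were lower at an unadjusted p under 0.05. Of all genes, 26.8% had such a p in either direction as deposited and 8.84% after scaling. The median deposited fold over all genes was also below 0. Across the 15 libraries of this cohort, with group means taken off, their sum had a rho of 0.71 with scaled Hspa1a, 0.525 with scaled Hspa1b and 0.47 with scaled Dnajb1. Their part in the differences of these 3 genes was not tested.

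The remaining chaperones of the APP/TAU cohort had smaller folds after scaling than as deposited. Hsph1 read 51.1, 57.8, 42.0, 53.0 and 44.1 TPM in 2P-Im-treated brains and 54.5, 76.9, 54.4, 60.8 and 54.9 TPM in vehicle-treated brains, against 58.8, 45.3, 55.7, 64.0 and 72.2 TPM in wild-type brains. The treated libraries lay low but overlapped the vehicle group, and the fold was -0.27 ± 0.13 as deposited and -0.052 ± 0.08 after scaling. Hsp90ab1 averaged 433 ± 32.5 TPM in 2P-Im-treated and 519 ± 70.1 TPM in vehicle-treated brains, a deposited fold of -0.26 ± 0.11 that became -0.031 ± 0.03 after scaling. Hspb1 read 11.1, 11.0, 9.45, 10.0 and 8.96 TPM in 2P-Im-treated brains and 13.7, 23.0, 8.12, 15.0 and 12.0 TPM in vehicle-treated brains, with overlapping groups. Its fold was -0.40 ± 0.22 as deposited and -0.19 ± 0.17 after scaling, and without vehicle library 2 it was -0.22 ± 0.19 and -0.064 ± 0.16.

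Rbm3 and Cirbp showed no lean that held on both scales in treated APP/TAU mice. Rbm3 read 52.5, 32.3, 53.0, 57.7 and 65.7 TPM in 2P-Im-treated brains and 81.7, 50.0, 51.0, 62.9 and 43.1 TPM in vehicle-treated brains, against 49.6, 48.5, 48.0, 53.4 and 37.0 TPM in wild-type brains. The groups overlapped, and the fold was -0.14 ± 0.18 as deposited and 0.077 ± 0.19 after scaling. Cirbp read 31.2, 27.2, 31.0, 36.6 and 43.3 TPM in 2P-Im-treated brains and 39.7, 34.5, 28.1, 46.0 and 23.7 TPM in vehicle-treated brains, against 25.2, 25.5, 31.5, 31.7 and 18.6 TPM in wild-type brains. All 3 groups overlapped, with wild type lowest on average, and the fold of 2P-Im over vehicle was -0.0029 ± 0.18 as deposited and 0.22 ± 0.16 after scaling.

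For the APP/TAU genotype in vehicle-treated mice, 0 of 10 members were called with limma on either scale, where 0.0227% of genes were called as deposited and 0.0284% after scaling. All 10 deposited folds were above 0, with a median of 0.13 against 0.18 over all genes, and none had an unadjusted p under 0.05, against 23.8% of genes. After scaling 8 of the 10 were below 0, and Hspa8 and Hsp90aa1 had an unadjusted p under 0.05, against 14.2% of genes. Scaled Hspa8 read 612, 683, 707, 619 and 709 TPM in vehicle-treated APP/TAU brains and 725, 724, 731, 797 and 793 TPM in wild-type brains. The groups did not overlap, which 1.03% of all genes also showed in that direction, and the fold was -0.18 ± 0.05 (limma adjusted p = 0.19). The deposited fold of Hspa8 was 0.029 ± 0.11, so the direction depended on the scale.

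Treated APP/TAU mice set against wild type gave 0 of 10 members called with limma on either scale, where 0.0227% of genes were called as deposited and 0.0284% after scaling. As deposited, Hspa1b alone had an unadjusted p under 0.05, against 2.16% of genes, with a fold of -0.69 ± 0.29. Without wild-type library 1 that fold was -0.45 ± 0.26, and without wild-type library 5 it was -0.57 ± 0.30, and in neither case was its unadjusted p under 0.05. Hspa1a was the member whose treated libraries all lay below the wild-type ones, as 0.125% of genes did, with the gap between its highest treated and lowest wild-type library being 5.01 against 5.15 TPM. Without wild-type library 1 the deposited fold of Hspa1a was -0.19 ± 0.17, and with it -0.41 ± 0.22. After scaling no member separated these groups. At an unadjusted p under 0.05, reached by 7.83% of genes, Hspa1b, Hsph1, Dnajb1, Hspa8 and Hsp90ab1 were then lower, with folds of -0.69, -0.23, -0.21, -0.13 and -0.091, and Cirbp was higher, with 0.36 ± 0.16 (adjusted p = 0.63). The scaled fold of Hspa1b was -0.44 ± 0.23 without wild-type library 1 and -0.56 ± 0.28 without wild-type library 5, again with an unadjusted p above 0.05.

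Whether the cohorts differed was tested as the difference between contrasts, each made within its own table. Over 16418 genes tested in both, 0 of 10 members were called with limma, where 0.134% of genes were called for the 2P-Im effect and 0.177% for the genotype effect as deposited (0.0731% and 0.53% after scaling). At an unadjusted p under 0.05 as deposited there were 3 members for the 2P-Im effect, Hspa1a, Hspa1b and Dnajb1, against 16.2% of all genes, and 1 for the genotype effect, Cirbp, against 19.8%. After scaling there were 3 for the 2P-Im effect, Hspa1a, Hspa1b and Hsp90aa1, against 11.5% of genes, and 2 for the genotype effect, Hsph1 and Hspa8, against 11.1%. For the 2P-Im effect, AppNLGF minus APP/TAU, the difference was 0.55 ± 0.19 for Hspa1a (limma adjusted p = 0.15) and 0.73 ± 0.26 for Hspa1b (adjusted p = 0.17). After scaling these were 0.39 ± 0.18 and 0.57 ± 0.24, with limma adjusted p of 0.38 and 0.32, and that of Hsp90aa1 was -0.13 ± 0.05 (adjusted p = 0.28). For the genotype effect, the difference was -0.68 ± 0.24 for Cirbp (limma adjusted p = 0.16) as deposited and -0.45 ± 0.23 after scaling, where that of Hsph1 was 0.31 ± 0.10 (adjusted p = 0.20) and that of Hspa8 0.20 ± 0.07 (adjusted p = 0.28). Model, age and length of treatment differ together between the cohorts and cannot be told apart. The tissue taken may differ as well. Summed markers of the striatum spanned 209 to 383 TPM in the AppNLGF cohort and 39.8 to 67.4 TPM in the APP/TAU cohort. Those of the cerebellum stood the other way, as given above. Xist exceeded 10 TPM in some AppNLGF brains but in no library of the APP/TAU cohort. The part of tissue and Xist in the cohort differences was not tested.

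Levels also stood apart between the tables, which were normalized separately, so that this was not tested. Hspb1 averaged 10.1 ± 0.93, 14.4 ± 5.47 and 13.2 ± 3.96 TPM in 2P-Im, vehicle and wild-type brains of the APP/TAU cohort, against 4.53 to 5.29 TPM over the group means of the AppNLGF cohort. The other 9 members had group means in the same order of magnitude in both tables.

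Other chaperones and co-chaperones, such as the HSP40, HSP70 and endoplasmic reticulum families outside the set, gave the same count. Of a list of 31, with limma, 0 were called in any of the 6 comparisons on either scale. For 2P-Im against vehicle in AppNLGF mice, 28 of the 31 had deposited folds below 0, with a median of -0.11 against -0.038 over all genes. After scaling, 24 were below 0 with a median of -0.072, and 12 of these had an unadjusted p under 0.05 and a lower level, against 12.5% of all genes in either direction. For vehicle-treated APP/TAU against wild-type mice the direction depended on the scale. As deposited, 26 of the 31 folds were above 0, with a median of 0.092 against 0.18 over all genes, and with limma 0 had an unadjusted p under 0.05, against 23.8% of genes. After scaling, 30 were below 0, with a median of -0.11, and 11 were lower at an unadjusted p under 0.05, against 14.2% of genes. The 8 subunits of the cytosolic chaperonin, which folds actin and tubulin, gave 0 called likewise. In that last comparison all 8 had deposited folds above 0, with a median of 0.064 and 0 at an unadjusted p under 0.05, and all 8 had scaled folds below 0, with a median of -0.14 and 5 lower at an unadjusted p under 0.05. The lists were drawn up with earlier results of these data known, and their medians are descriptions.

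Within groups, some of these genes varied together from library to library, chiefly Rbm3 with Cirbp and, among the abundant chaperones, Hsp90aa1 with Hsph1 and Hspa8. Hsph1 ran against Rbm3 and Cirbp, and Hspa8 against Rbm3, in both cohorts after scaling. For each of the 45 pairs per cohort, deviations from group means of scaled log2 levels were correlated across the 28 libraries of the AppNLGF cohort and the 15 of the APP/TAU cohort. P-values came from 100000 permutations of libraries within groups (permutation test, two-sided) and were adjusted over all 90 pairs. In the AppNLGF cohort 14 pairs passed for Spearman's rho, 9 positive and 5 negative, and in the APP/TAU cohort 10 passed, 5 of each sign. In all, 6 pairs passed in both, each with the same sign, and 40 of the 45 pairs had the same sign of rho in both cohorts.

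**Figure D3:**
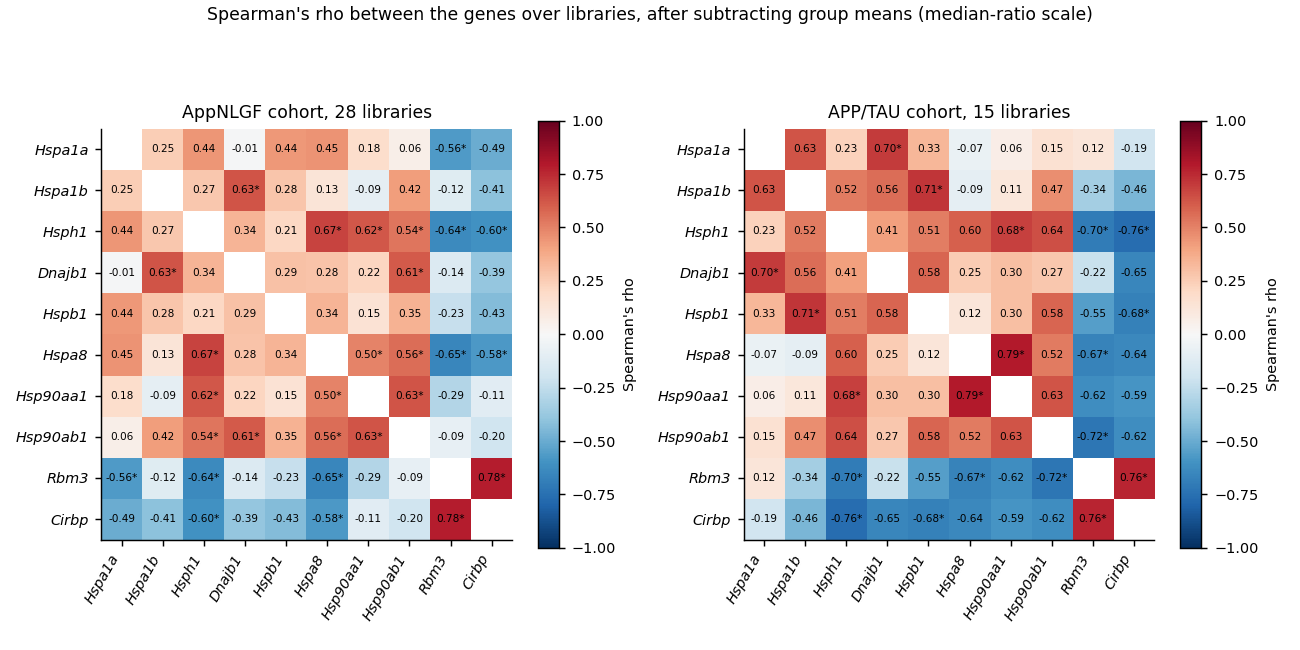
Spearman's rho between each pair of the 10 genes across libraries, from deviations of median-ratio scaled log2 levels from their group means, with the AppNLGF cohort and the APP/TAU cohort side by side; colour runs from -1 to 1 and a star marks an adjusted permutation p under 0.05. Hsph1, Hspa8 and Hsp90aa1 form a positive block, Rbm3 and Cirbp form another, and the squares that join these blocks are negative in both cohorts, with a star in both for Hsph1 with Rbm3, Hsph1 with Cirbp and Hspa8 with Rbm3.

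The closest pair was that of the cold-inducible genes. Rbm3 and Cirbp had r = 0.88 and rho = 0.78 in the AppNLGF cohort (permutation adjusted p = 0.0009 and 0.0018) and r = 0.79 and rho = 0.76 in the APP/TAU cohort (adjusted p = 0.0097 and 0.016). The unadjusted p of r in the AppNLGF cohort was 1e-05, the smallest that these permutations can give. Without the 2 libraries farthest from the median of Rbm3, r was 0.82 and 0.78. On the deposited scale r was 0.89 and 0.79, so this pair did not depend on the scaling. Within the AppNLGF treated and vehicle groups taken alone, rho was 0.55 and 0.75.

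Among chaperones, Hspa8 and Hsp90aa1 had r = 0.55 and rho = 0.50 in the AppNLGF cohort (permutation adjusted p = 0.014 and 0.029) and r = 0.84 and rho = 0.79 in the APP/TAU cohort (adjusted p = 0.0074 and 0.024). Hsph1 and Hsp90aa1 had rho of 0.62 and 0.68 (permutation adjusted p = 0.013 and 0.047). Dnajb1 ran with Hspa1b in the AppNLGF cohort (rho 0.63, permutation adjusted p = 0.013) and with Hspa1a in the APP/TAU cohort (rho 0.70, adjusted p = 0.028). Hspa1a and Hspa1b, although they share a promoter window and many sequence words, had rho of only 0.25 in the AppNLGF cohort (permutation adjusted p = 0.33) and 0.63 in the APP/TAU cohort (adjusted p = 0.072).

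The pairs of an abundant chaperone with a cold-inducible gene that passed in both cohorts were negative. Hsph1 and Rbm3 had r = -0.68 and rho = -0.64 in the AppNLGF cohort (permutation adjusted p = 0.0046 and 0.017) and r = -0.75 and rho = -0.70 in the APP/TAU cohort (adjusted p = 0.0046 and 0.024). Hspa8 and Rbm3 had rho of -0.65 and -0.67 (permutation adjusted p = 0.016 and 0.029), and Hsph1 and Cirbp had rho of -0.60 and -0.76 (adjusted p = 0.022 and 0.024). Leaving out the 2 libraries farthest in Hsph1 gave r of -0.58 and -0.72 with Rbm3.

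This opposition depended on the scaling and on part of the libraries. On the deposited scale, Hsph1 and Rbm3 had r of 0.017 in the AppNLGF cohort and -0.42 in the APP/TAU cohort. Deposited Hspa8 had a rho of -0.75 and -0.78 with the share of the most abundant RNA in the AppNLGF and APP/TAU cohorts, against 0.21 and 0.30 after scaling. Within the AppNLGF cohort, the 14 libraries numbered 1 to 5 gave a scaled rho of -0.86 between Hsph1 and Rbm3, and the 14 libraries numbered 6 and above gave -0.28. This split was chosen after seeing the data, and what the numbers stand for is not stated.

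**Figure D4:**
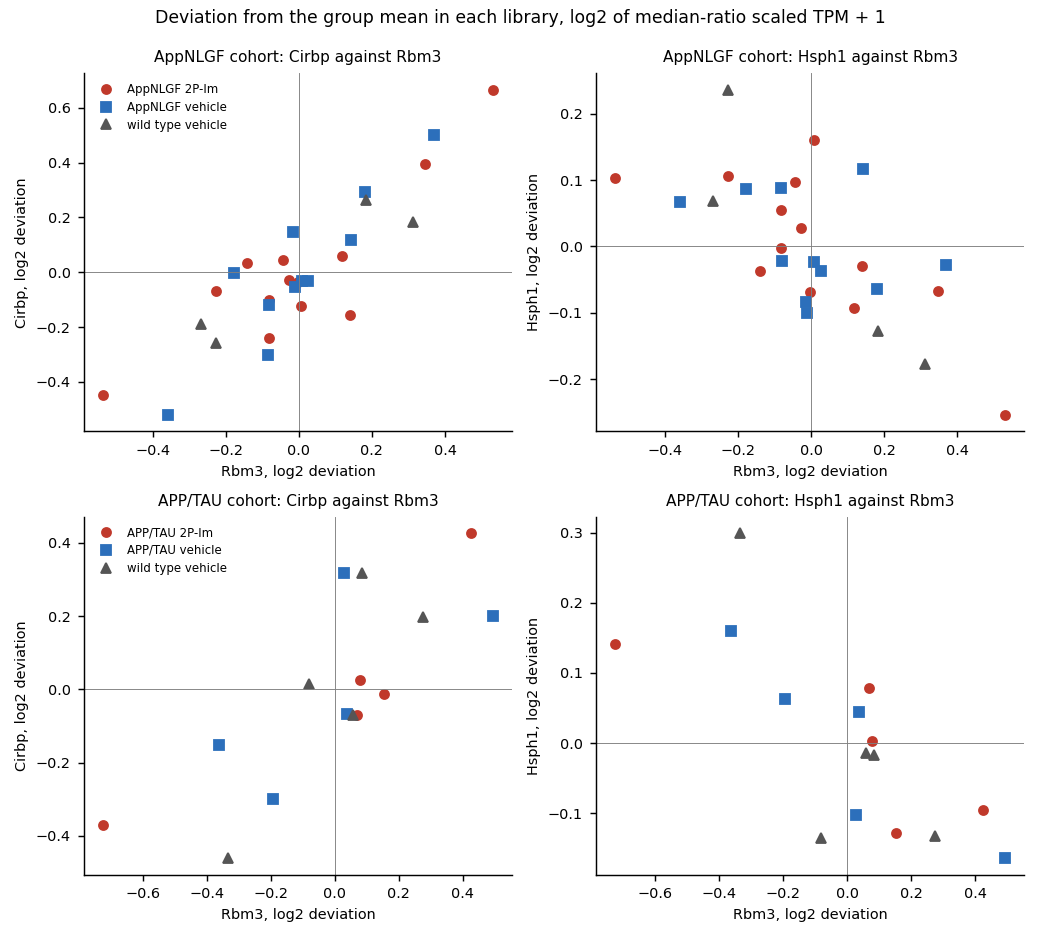
Deviation of Cirbp (left) and Hsph1 (right) from its group mean against that of Rbm3 in each library, log2 of median-ratio scaled TPM, with the AppNLGF cohort above and the APP/TAU cohort below; points are libraries, marked by group. Cirbp rises with Rbm3 (rho 0.78 above and 0.76 below) and Hsph1 falls with it (rho -0.64 and -0.70), with libraries of all 3 groups along each slope.

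Other chaperones and cell markers were set beside the members in the same way. The summed level of the 31 other chaperones had a rho of 0.82 and 0.76 with Hspa8, 0.73 and 0.54 with Hsph1, and -0.52 and -0.64 with Rbm3 in the AppNLGF and APP/TAU cohorts. Summed markers of neurons had a rho of -0.026 and 0.064 with Rbm3 and of 0.077 and -0.23 with Hsph1, and those of endothelium -0.19 and -0.14 with Rbm3. The sum of the immediate early genes had a rho that ran over the 10 members from -0.17 (Hspa1a) to 0.64 (Dnajb1) in the AppNLGF cohort and from -0.096 (Hsp90ab1) to 0.71 (Hspa1a) in the APP/TAU cohort, with 0.044 and 0.26 for Rbm3 and 0.015 and 0.10 for Hsph1. Markers of the choroid plexus, whose sum spanned 6.43 to 727 TPM over the AppNLGF cohort, had a rho of 0.0044 with Rbm3 and 0.16 with Hsph1 there. These are descriptions over libraries that share the same scaling.

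By rank correlation of scaled deviations over all genes tested, the 5 genes most like Hsph1 in the AppNLGF cohort were Samd4b (rho 0.80), Stt3b (0.79), Hsp90b1 (0.77), Ppard (0.77) and Mlec (0.76), and in the APP/TAU cohort Xpo1 (0.91), Dnajc3 (0.88), Kirrel3 (0.87), Pcmtd2 (0.84) and AC156546.1 (0.84). Those most like Rbm3 in the AppNLGF cohort were Cirbp (0.78), Stard7 (0.73), Fam76a (0.71), Cdhr1 (0.69) and 1110003F10Rik (0.68), and in the APP/TAU cohort Herc3 (0.92), Eno3 (0.88), Prr32 (0.87), Coro1a (0.85) and Atp6v0e2 (0.84). No gene was on both cohorts' list for either anchor. Cirbp, first of all genes for Rbm3 in the AppNLGF cohort over 28 libraries, was not among the first 5 in the APP/TAU cohort over 15.

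The AppNLGF table also lists 64708 single transcripts beside the genes, and 30 of the members' transcripts passed the filter on low values. Nearly all transcripts of the GENCODE M21 annotation outside its basic set appear there (59495 of 60734), so the gene values appear to leave them out. These extra transcripts, many of them unspliced or marked for decay, made up 36.0% of the summed level of Hsp90aa1, 30.6% of Cirbp, 25.0% of Rbm3, 23.0% of Hspa8 and 21.1% of Hsph1, but only 1.86% of Hsp90ab1 and none of Hspa1a, Hspa1b, Dnajb1 or Hspb1. How reads were split between transcripts is an estimate of the authors' quantification. No such values were used for the APP/TAU cohort.

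Rbm3-208, an Rbm3 transcript annotated for nonsense-mediated decay, was the 1 member transcript called between 2P-Im and vehicle, and only after scaling. It ran from 2.02 over a median of 3.11 to 4.58 TPM in 2P-Im-treated AppNLGF brains and from 0.945 over 1.63 to 2.51 TPM in vehicle-treated ones, with 1.12 to 3.32 TPM in the 4 wild-type brains. Treated brains held most of the high values, though the groups overlapped. Its scaled log2 fold was 0.62 ± 0.13 (limma adjusted p = 0.037 over 21076 transcripts), and the adjusted p was above 0.05, at up to 0.074, when any of 15 libraries was left out in turn. Of all transcripts, 0.27% were called higher and 0% lower. As deposited the fold was 0.59 ± 0.13 (adjusted p = 0.14), where 0% of transcripts were called in either direction with limma and 7.94% had an unadjusted p under 0.05.

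Relative to the Rbm3 gene value, Rbm3-208 amounted to 5.93 ± 1.48% in 2P-Im-treated, 3.81 ± 1.20% in vehicle-treated and 3.93 ± 1.36% in wild-type brains (SD, n = 13, 11 and 4). The transcript was singled out after its values were seen. Including it, 8 of the 30 member transcripts had an unadjusted p under 0.05, all higher with 2P-Im, on both scales, against 11.8% of transcripts after scaling. They were Rbm3-208 and Rbm3-211, Hsph1-204 and Hsph1-208, Hspa8-204, Hspa8-207 and Hspa8-208, and Hsp90ab1-203. Hsph1-204, a retained-intron form, had a scaled fold of 0.53 ± 0.13 (limma adjusted p = 0.077), opposite in sign to the fold of -0.18 of its gene value.

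Rbm3-208 owes its annotation to an extra exon, the fourth of 7, which lies at chrX:8144175-8144445 on the minus strand (GENCODE M21, GRCm38), is 271 bases long and is held by 2 Rbm3 transcripts. An exon of this kind in Rbm3 is known to be included in warm cells, where it sends the transcript to decay, and skipped in cooled cells. Its start is shown because the reading frame ends in it after 60 coding bases; capitals mark the stop codon.
Rbm3 exon, chrX:8144383-8144445, minus strand: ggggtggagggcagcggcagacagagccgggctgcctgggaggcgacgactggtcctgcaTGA

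**Figure D5:**
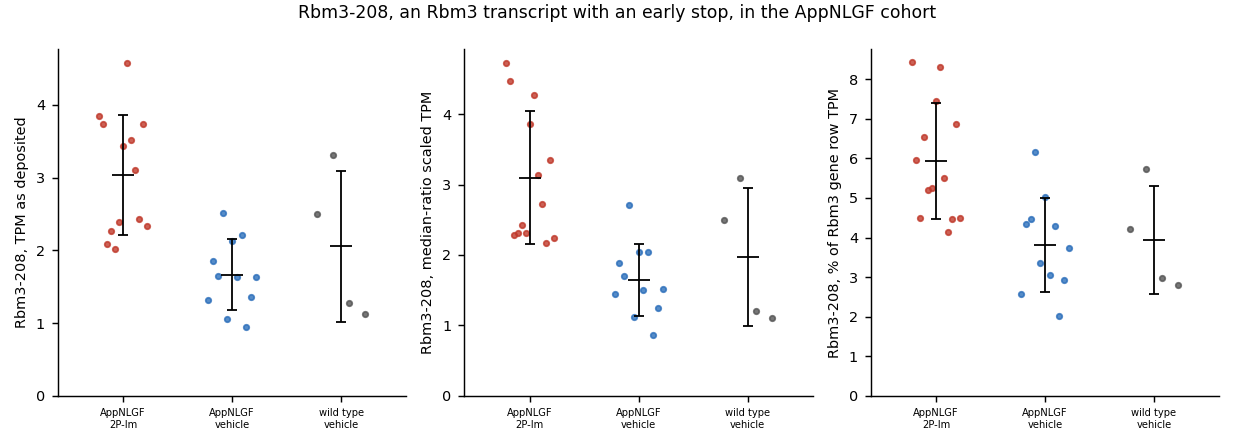
Rbm3-208 in each AppNLGF-cohort library, as deposited TPM (left), median-ratio scaled TPM (middle) and percent of the Rbm3 gene value (right), with 2P-Im left of vehicle and vehicle left of wild type; points are libraries and bars are group means with SD. Means of the left and right panels are 3.04, 1.66 and 2.05 TPM and 5.93, 3.81 and 3.93% in 2P-Im, vehicle and wild-type brains.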

How the data were processed

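Whole-tissue RNA from 43 brain samples was sequenced, with stranded libraries per the labels' protocols. Gene values were deposited by the authors as TPM, and the submitters' processing notes name Salmon and the build GRCm38 (mm10); the sources used here do not give versions, annotation or depth, so no interval for counting error is given and the number of libraries limits the precision. One table holds 28 libraries and another 15, each with its wild-type group, and comparisons were made within a table.

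Genes averaging 1 TPM or more over a table were tested as log2(TPM + 1) with limma 3.58.1 (trend) in R 4.3.3, with the 3 groups of a cohort in one fit and no covariate. P-values are two-sided, adjusted by Benjamini-Hochberg over all genes, and called under 0.05. A fold on this scale understates the change of low genes. Median-ratio scaling divided each library by its median ratio to the gene-wise geometric mean. Correlations used Python 3.11.15 and scipy 1.17.1. The scripts were tested on simulated data. Alternatives were a pseudocount of 0.1, a minimum of 5 or none, only the 2 groups compared, a replicate block, and each library left out. Terms for library numbers 1 to 5 and for Xist above 10 TPM, the adding of single-transcript values, the leaving out of 2 libraries together and the fits of single transcripts were chosen after seeing the data.

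The members and gene lists were chosen with earlier results of these data known. Named genes are the 10 members and, by rank, the 5 genes most like Hsph1 and Rbm3. Of 55804 gene identifiers, 51327 were matched to a symbol. Sequences are from RefSeq (GRCm38.p6) and GENCODE M21.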

Additional observations from a re-analysis of the deposited data

Results flagged for a closer look

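Of 40 groups of 4 or 5 libraries examined among the 10 genes, 4 held a library standing far from its group, and chance alone flags about 1 in 20 groups. That rate takes the groups as independent, whereas 3 of the 4 flags fell on the same library. Groups of more than 10 libraries were not examined this way. As deposited, APP/TAU vehicle library 2 stood above its group in 3 genes: Hspa1a read 13.3 TPM against 5.65 to 7.44 TPM in the other vehicle libraries, Dnajb1 read 29.5 TPM against 20.0 to 22.5 TPM, and Hsph1 read 76.9 TPM against 54.4 to 60.8 TPM. The median-ratio divisor of this library, 1.28, was the largest of its cohort. After scaling, its log2 deviations from the group mean were 0.53 (Hspa1a), 0.17 (Dnajb1) and 0.16 (Hsph1). The next highest vehicle libraries stood at -0.012, 0.068 and 0.063, so for Dnajb1 and Hsph1 the gap was smaller after scaling. Wild-type library 1 of the same cohort read 13.5 TPM for Hspa1a, against 5.15 to 6.21 TPM in the other wild-type libraries. Rbm3-208, a transcript outside the gene values, had a scaled log2 fold of 0.62 between 2P-Im and vehicle in AppNLGF mice, a signal in data that the gene comparisons do not use.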

How the results depend on the processing

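TPM keep no sequencing depth, so values of the low genes Hspa1a, Hspa1b and Hspb1 carry a counting error that could not be computed. A pseudocount of 0.1 changed no direction among the members' deposited folds. The filter and fitting only the 2 groups compared leave each fold as it is by construction, and could change only its p-value. Of the alternatives other than leaving out 1 library, 479 kept direction and side of the threshold and 46 turned a fold round. A further 10 brought one past the threshold and 2 lost one, and the cause was not tested. The 479 include the filter and 2-group fits, whose direction could not change.

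On median-ratio scaled levels, replicate numbers shared between groups did not pair the libraries (correlations over 0.1 for 3 of 11 pairs of AppNLGF vehicle with 2P-Im and for none elsewhere). That check cannot see a shift shared by all genes of a library, and deposited levels were not checked in this way. The median-ratio divisor ran from 0.913 to 0.979 in AppNLGF vehicle libraries numbered 1 to 5. In those numbered 6 and above it ran from 1.04 to 1.10. With 2P-Im these ranges were 0.812 to 0.984 and 0.888 to 1.14. Wild-type libraries, which all fall among numbers 1 to 5, ran from 0.999 to 1.07. The part of these divisors in fits with the block or number term was not tested. With the replicate block 5 members were called lower for AppNLGF 2P-Im against wild type (Hsph1, Dnajb1, Hspa8, Hsp90aa1 and Hsp90ab1), where 18.8% of genes were, and 5 with a term for library numbers, where 30.2% were. Without either term, 0.262% of genes were called in either direction as deposited. Folds turned round under the block were -0.065 (Hspa1b) and -0.034 (Hsph1) for AppNLGF vehicle against wild type, and -0.19 (Hspa1b) and -0.047 (Rbm3) for AppNLGF 2P-Im against wild type. Under the number term they were -0.041 (Hsph1) and, against wild type with 2P-Im, -0.15 (Hspa1b) and -0.12 (Rbm3), and under the Xist term 0.013 (Cirbp).

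After median-ratio scaling, with or without the block, folds for APP/TAU vehicle against wild type were -0.011 (Hspa1a), -0.019 (Hspa1b), -0.18 (Hsph1), -0.086 (Dnajb1), -0.10 (Hspb1), -0.18 (Hspa8), -0.13 (Hsp90aa1) and -0.060 (Hsp90ab1), and those for APP/TAU 2P-Im against vehicle were 0.053 (Hspa8), 0.064 (Hsp90aa1), 0.077 (Rbm3) and 0.22 (Cirbp). In AppNLGF mice scaling gave 0.0041 (Hspa1a) and 0.032 (Dnajb1) for 2P-Im against vehicle and 0.016 (Hspa8) for vehicle against wild type. Block and scaling together gave 0.039 (Hspa1a) and 0.018 (Dnajb1), 0.010 (Hspa1a) and 0.033 (Hspa8) for these, and 0.049 (Hspa1a), -0.020 (Hspa1b) and 0.16 (Hspb1) for 2P-Im against wild type. Without both wild-type library 1 and APP/TAU vehicle library 2, folds were -0.058 (Hsph1), -0.072 (Hspb1), -0.040 (Hspa8) for vehicle against wild type and 0.0078 (Cirbp) for 2P-Im against vehicle.

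Scaled, 1 member (Hsph1) was called for AppNLGF 2P-Im against vehicle with only the 2 groups, 1 with the Xist term, and 0 to 1 with 1 library left out (1 without wild-type library 3). Member transcripts called numbered 3 with only 2 groups, 0 with the block and 0 to 4 with 1 library left out. At a minimum TPM of 5 they numbered 0, but Rbm3-208, with group means of 1.66 to 3.04 TPM, was not tested there.

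Leaving out 1 library turned round these folds, given as ranges: for APP/TAU 2P-Im against vehicle, Cirbp -0.12 to 0.11 and Rbm3 -0.24 to 0.016; for APP/TAU vehicle against wild type, Hspa1a -0.0042 to 0.40, Hspa8 -0.044 to 0.12, Hspb1 -0.084 to 0.26 and Hsph1 -0.061 to 0.10; for AppNLGF 2P-Im against vehicle, Dnajb1 -0.038 to 0.029; for AppNLGF 2P-Im against wild type, Hspa1a -0.16 to 0.010, Hspa1b -0.094 to 0.10, Hspb1 -0.17 to 0.056 and Rbm3 -0.050 to 0.13; for AppNLGF vehicle against wild type, Hspa1a -0.13 to 0.042 and Hspa8 -0.054 to 0.037.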
